A study of Mus musculus with 4 samples.

Results

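Genes that move salt and water across the lung epithelium, 9 in all, were followed: the 3 subunits of the epithelial sodium channel ENaC (*Scnn1a*, *Scnn1b* and *Scnn1g*), its ubiquitin ligase *Nedd4l*, the Na,K-ATPase subunit *Atp1b1*, the water channel *Aqp1*, and the chloride transporters and channels *Slc12a2*, *Cftr* and *Ano1*. They were chosen by gene name, with earlier results of these data known, and all 9 were found among the 45706 genes of the count table. The counts come from messenger RNA of whole left lung lobes at embryonic day (E) 17, in the saccular period, when the airspaces are still filled with liquid. The study set mutants beside wild types to find which genes change in the developing lung when the nonmuscle myosin heavy chain gene *Myh10* is mutated. All animals were C57BL/6 and received no treatment. The 2 wild-type lungs are *Myh10*+/+. The 2 mutant lungs (*Myh10*-/-) were homozygous for L458R, a missense change of the myosin motor domain that came from a chemical mutagenesis screen. The sign -/- therefore stands for a point mutation, carried in every cell of the embryo, and not for a deletion.

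The lung of the fetus is a secretory organ. SLC12A2 (NKCC1), on the basal side of the epithelium, loads the cells with chloride, which leaves through apical chloride channels such as CFTR and the calcium-activated channel ANO1 and draws sodium and water into the airspace. Around birth the flow turns to absorption: sodium enters through apical ENaC and is pumped out on the basal side by the Na,K-ATPase, while aquaporins let water follow.

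The libraries held 23156026 and 19116971 counts on genes in wild-type lungs 1 and 2, and 27573824 and 32055306 in mutant lungs 1 and 2. Each of the 9 genes was well counted, from a mean of 479 counts per lung for *Scnn1b* to 11444 for *Slc12a2*, and all 9 were among the 18763 genes tested. Replicate lungs differed by more than counting error. The chi-square per degree of freedom was 5.59 between the wild-type lungs and 9.27 between the mutant lungs. Both values cover all genes, those of chromosomes X and Y included, and the share of sex-linked genes in them was not computed. The number of lungs limits the precision. One lung of each genotype stood apart by its sex-linked RNA. *Xist*, transcribed from the inactive X chromosome, was at 3916 counts per 1000000 counts on tested genes (CPM) in wild-type lung 1 and 4457 in mutant lung 2, but at 1.84 in wild-type lung 2 and 4.10 in mutant lung 1. The Y-linked *Ddx3y* had the reverse order, at 0.437, 182, 198 and 0.0932 CPM in wild-type lungs 1 and 2 and mutant lungs 1 and 2. Each genotype thus had 1 lung of either kind. *Myh10* itself was at 505 and 504 CPM in the wild-type lungs and 539.5 and 513 in the mutant lungs, which is 0.06 as a log2 fold change, with a standard error (SE) of 0.0593, and did not pass the test (edgeR quasi-likelihood test, QL, with Benjamini-Hochberg adjustment over all tested genes, BH, adjusted p = 0.662). The point mutation is not read out by the level of its transcript.

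Of the 9 genes, 5 passed the test as lower in the mutants, *Ano1* and *Scnn1b* were lower in both mutant lungs without passing, and *Slc12a2* and *Cftr* overlapped between genotypes. At an adjusted p under 0.05 in edgeR's QL test, 5 of the 9 genes were lower in mutant lungs, namely *Scnn1a*, *Scnn1g*, *Nedd4l*, *Atp1b1* and *Aqp1*, against 1.34% of all tested genes (252 of 18763). By the same test 0 of the 9 were higher, against 0.298% of all tested genes (56). At an unadjusted p under 0.05 the counts were 7 lower and 0 higher, against 9.02% and 7.52% of all tested genes, and DESeq2's Wald test called 4 lower and 0 higher, against 1.38% and 0.49% of all. With library totals in place of the trimmed mean of M-values (TMM) scaling, the calls over all genes were 234 lower and 112 higher, so that 67.6% of the calls were lower in place of 81.8%. For 7 of the 9 genes both mutant lungs lay below both wild-type lungs, a pattern that 24.3% of all tested genes also had, and for 0 of the 9 both lay above, which held for 23.9% of all. The median log2 fold change of the 9 genes was -0.31, beside 0.00179 for all tested genes. In bulk lung RNA, fewer cells of a type and less RNA per cell cannot be told apart.

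**Figure D1:**
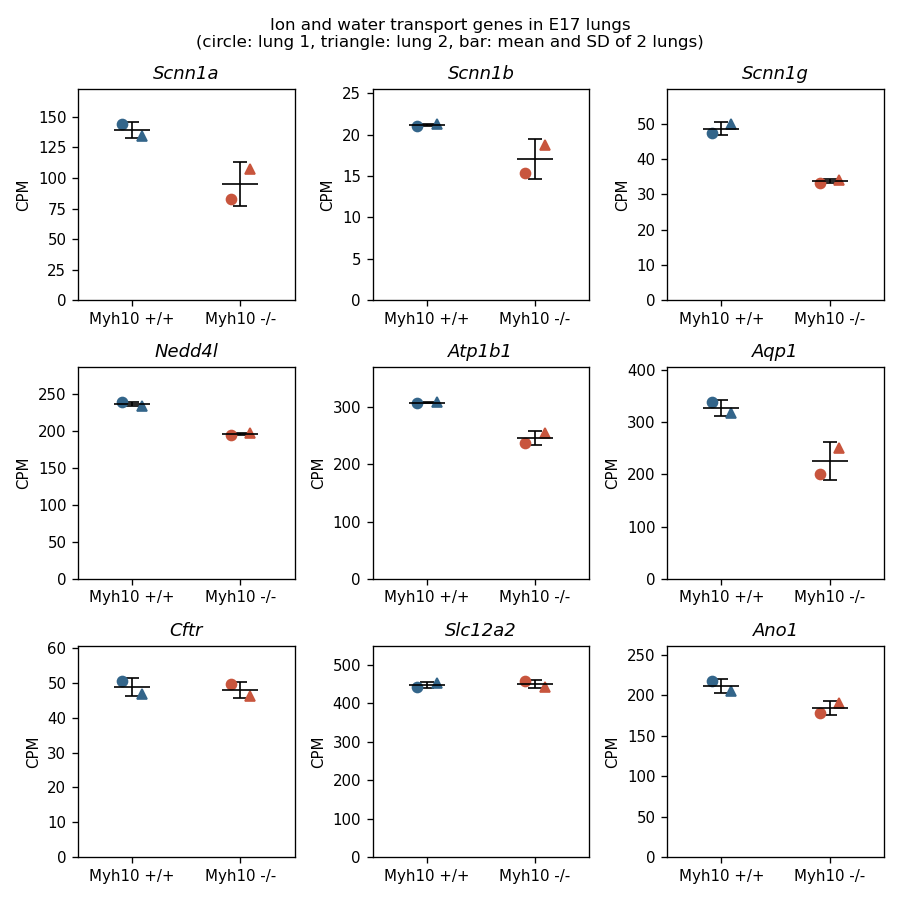
Level of each of the 9 transport genes in each E17 lung, in CPM on axes that start at 0 (blue *Myh10*+/+, red *Myh10*-/-; circle lung 1, triangle lung 2; bars give the mean and SD of 2 lungs). The *Myh10*-/- lungs sit below the *Myh10*+/+ lungs for 7 genes, as for *Scnn1a* at 82.5 and 108 against 144 and 135 CPM, and the genotypes overlap for *Cftr* and *Slc12a2*.

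*Scnn1a* (ENSMUSG00000030340; GRCm38 chr6:125320659-125344943, plus strand) encodes the α subunit, without which ENaC forms little current. Its level was 144 and 135 CPM in the wild-type lungs and 82.5 and 108 CPM in the mutant lungs. Both mutant lungs lay below both wild-type lungs, and mutant lung 1 was the lowest. The means were 139 ± 6.67 and 95.1 ± 17.8 CPM (SD, n = 2 lungs each), a log2 fold change of -0.55 (SE 0.0955, 95% interval -0.76 to -0.34, edgeR QL, BH-adjusted p = 0.0184). *Scnn1a* kept its direction in each of 13 alternative analyses, but its adjusted p ranged from 3.32e-15 (edgeR QL and BH with no filter on low counts) to 0.0958 (DESeq2), and was also above the threshold with robust dispersion estimates in edgeR (0.0551).

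*Scnn1g* (ENSMUSG00000000216; chr7:121734479-121768475, plus strand) and *Scnn1b* (ENSMUSG00000030873; chr7:121865038-121918514, plus strand) encode the γ and β subunits, which complete the channel and carry, as the α subunit does, the proline-rich motif bound by NEDD4L. They are neighbours, 96.6 kb apart and read in the same direction. *Scnn1g* was at 47.3 and 49.9 CPM in the wild-type lungs and at 33.3 and 34.1 CPM in the mutant lungs. The lungs of each genotype were close together and the genotypes were apart, with a log2 fold change of -0.53 (SE 0.0751, 95% interval -0.69 to -0.36, edgeR QL, BH-adjusted p = 0.00897). That call held in 13 of 13 alternatives. *Scnn1b* was at 21.0 and 21.3 CPM in the wild-type lungs and at 15.3 and 18.7 CPM in the mutant lungs. Although both mutant values were below both wild-type values, the mutant lungs differed from each other by more than the wild-type lungs did, and the log2 fold change of -0.31 (SE 0.0959, 95% interval -0.52 to -0.10) did not pass the test (edgeR QL, BH-adjusted p = 0.135). Over its 13 alternatives the adjusted p of *Scnn1b* ranged from 0.00287 to 0.619, and it passed in 2, without mutant lung 2 (edgeR QL and BH, 0.00287, log2 fold change -0.46) and with no filter on low counts (0.0349). Without mutant lung 1 its log2 fold change was -0.17 (edgeR QL, BH-adjusted p = 0.619).

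Set against *Scnn1a* within each lung, *Scnn1g* overlapped between genotypes and *Scnn1b* did not, and the permutation test used here can decide neither. The log2 ratio of *Scnn1g* to *Scnn1a* counts was -1.61 and -1.43 in the wild-type lungs and -1.31 and -1.66 in the mutant lungs. These values overlap, and the mean ratio differed by 0.0346 (two-sided exact permutation test, p = 1). The log2 ratio of *Scnn1b* to *Scnn1a* was -2.78 and -2.66 in the wild-type lungs and -2.43 and -2.52 in the mutant lungs, higher in both mutants by a mean of 0.244 (exact permutation p = 0.333). With 2 lungs against 2, 0.333 is the smallest p this test can give. It was run on 15 ratios between genes, none of which can pass a threshold of 0.05 and none of which was listed before the counts were opened.

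*Nedd4l* (ENSMUSG00000024589; chr18:64887705-65217828, plus strand) encodes the ubiquitin ligase that binds ENaC and removes it from the apical membrane. It was at 239 and 234.5 CPM in the wild-type lungs and at 195 and 197 CPM in the mutant lungs. The gap between the genotypes was far wider than that between lungs of one genotype (SD 2.97 and 1.26 CPM, n = 2 each). Its log2 fold change of -0.27 (SE 0.0445, 95% interval -0.37 to -0.17) passed the test (edgeR QL, BH-adjusted p = 0.0141), so the gene of the channel's negative regulator fell along with genes of the channel. Without wild-type lung 1 the adjusted p of *Nedd4l* was 0.0740 and without wild-type lung 2 it was 0.0542 (edgeR QL and BH), with log2 fold changes of -0.26 and -0.28. Over its 13 alternatives it ranged from 2.57e-05 to 0.0740. The related ligase gene *Nedd4* was at 2705 and 2660 CPM in the wild-type lungs and 2649 and 2641 CPM in the mutant lungs, a log2 fold change of -0.02 (95% interval -0.26 to 0.22) that did not pass (edgeR QL, BH-adjusted p = 0.951).

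*Atp1b1* (ENSMUSG00000026576; chr1:164437109-164458355, minus strand) encodes the β1 subunit that brings the sodium pump to the basal membrane. Its level was 307 and 308 CPM in the wild-type lungs and 237 and 254 CPM in the mutant lungs. The wild-type lungs were nearly equal, and both mutant lungs lay well below them. The log2 fold change was -0.32 (SE 0.0495, 95% interval -0.43 to -0.22, edgeR QL, BH-adjusted p = 0.0108), and the call held in 13 of 13 alternatives. Of the exon bases of *Atp1b1*, 575 (18.7%) overlap *Nme7* on the opposite strand. The strand setting of the counting is not stated. With strand, reads from this stretch go to their own gene, and without it they are dropped as ambiguous.

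The list of other Na,K-ATPase genes held 10 genes, all tested, of which 3 were lower and 0 higher by edgeR's QL test (unadjusted p under 0.05: 3 lower, 0 higher; DESeq2: 3 lower, 0 higher). Their median log2 fold change was -0.05. *Fxyd5*, a small modulator of the pump, was at 30.6 and 29.0 CPM in the wild-type lungs and 22.8 and 22.6 CPM in the mutant lungs (log2 fold change -0.40, edgeR QL, BH-adjusted p = 0.0198). For this gene both mutant lungs lay below both wild-type lungs. The β3 gene *Atp1b3*, at 127 and 130.5 CPM against 119 and 129 CPM, overlapped between genotypes (log2 fold change -0.05, edgeR QL, BH-adjusted p = 0.694). Leaving out 1 lung left 1 call in this list without wild-type lung 1, without wild-type lung 2 or without mutant lung 1, and 3 without mutant lung 2. The adjusted p of *Fxyd5* became 0.0620, 0.0757 and 0.0690 without wild-type lung 1, wild-type lung 2 and mutant lung 1 (edgeR QL and BH), and over its 13 alternatives it ranged from 0.000706 to 0.0757.

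*Aqp1* (ENSMUSG00000004655; chr6:55336432-55348555, plus strand) encodes a water channel best known in the lung from the microvascular endothelium, and in blood from red cells. It was at 338 and 317 CPM in the wild-type lungs and at 200.2 and 251 CPM in the mutant lungs. The mutant lungs were both lower, and mutant lung 1 was the lowest. The means of 327 ± 14.9 and 226 ± 36.0 CPM (SD, n = 2 each) gave a log2 fold change of -0.54 (SE 0.0828, 95% interval -0.72 to -0.36, edgeR QL, BH-adjusted p = 0.0108). The call held in 13 of 13 alternatives, with log2 fold changes from -0.71 without mutant lung 2 to -0.38 without mutant lung 1.

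Markers of the cells best known for *Aqp1* were measured beside it. Of 6 endothelial markers (*Pecam1*, *Cdh5*, *Kdr*, *Tek*, *Tie1* and *Emcn*), 0 were lower and 0 higher by edgeR's QL test, with 4 lower and 0 higher at an unadjusted p under 0.05 and 0 in either direction by DESeq2. Without mutant lung 1, 1 of them was lower. Their median log2 fold change was -0.13, and their summed level was 1535 and 1486 CPM in the wild-type lungs and 1420 and 1360 CPM in the mutant lungs, with *Pecam1* and *Cdh5* as the most abundant. The log2 ratio of *Aqp1* to *Pecam1* counts was -0.19 and -0.23 in the wild-type lungs and -0.76 and -0.44 in the mutant lungs, a difference of -0.396 (two-sided exact permutation p = 0.333). Of 7 erythroid markers (*Hbb-bs*, *Hbb-bt*, *Hba-a1*, *Hba-a2*, *Alas2* and *Slc4a1* among them), 2 were lower, *Hba-a2* and *Alas2*, and 0 higher (edgeR QL; unadjusted p under 0.05: 4 lower, 0 higher; DESeq2: 1 lower, 0 higher), with a median log2 fold change of -0.38. The summed erythroid level was 4274 and 5368 CPM in the wild-type lungs and 3772 and 4286 CPM in the mutant lungs, led by *Hbb-bs*. Wild-type lung 2 was highest for erythroid RNA and wild-type lung 1 for *Aqp1*, and mutant lung 1 was lowest for both. The erythroid count moved with single lungs: 4 without wild-type lung 1, 0 without wild-type lung 2, 3 without mutant lung 1 and 6 without mutant lung 2, and without wild-type lung 2 the log2 fold changes of *Hba-a2* and *Alas2* were -0.26 and -0.32. The globin genes come in near-identical copies, and the authors dropped reads that fit more than one place, so the levels of these genes leave out an unknown share. No marker of either list was at 0. The part of either cell type in the *Aqp1* difference was not tested.

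Of the other aquaporins, 5 of 11 had enough counts to be tested, and *Aqp12* was at 0 in every lung. By edgeR's QL test 1 was lower and 0 higher (unadjusted p under 0.05: 1 lower, 0 higher; DESeq2: 0 lower, 0 higher), and the median log2 fold change of the 5 was -0.09. *Aqp5*, the apical water channel of alveolar type 1 cells, was at 29.1 and 27.4 CPM in the wild-type lungs and at 8.56 and 15.3 CPM in the mutant lungs. Both mutant lungs were far below both wild-type lungs and also well apart from each other. Its log2 fold change of -1.23 (SE 0.176, 95% interval -1.62 to -0.85, edgeR QL, BH-adjusted p = 0.00897) was farther from 0 than that of any of the 9 genes. Over 13 alternatives the adjusted p of *Aqp5* ranged from 4.81e-35 to 0.237, and it was above the threshold with robust dispersion estimates (0.237) and in DESeq2 (0.0531). *Aqp4*, the basal water channel, was at 15.4 and 20.7 CPM in the wild-type lungs and 16.7 and 18.6 CPM in the mutant lungs, with full overlap (log2 fold change -0.02, edgeR QL, BH-adjusted p = 0.955).

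*Slc12a2* and *Cftr* gave values near 0. *Slc12a2* (ENSMUSG00000024597; chr18:57878678-57946821, plus strand), the basal loader of sodium, potassium and chloride, was at 442 and 453 CPM in the wild-type lungs and at 459 and 443 CPM in the mutant lungs. The genotypes overlapped and their means, 448 ± 7.55 and 451 ± 11.3 CPM (SD, n = 2 each), differed by less than the SD. The log2 fold change of 0.01 (SE 0.0534, edgeR QL, BH-adjusted p = 0.949) had a 95% interval from -0.11 to 0.13. *Cftr* (ENSMUSG00000041301; chr6:18170687-18322768, plus strand), the cyclic-AMP-gated chloride channel, was at 50.6 and 47.0 CPM in the wild-type lungs and at 49.6 and 46.3 CPM in the mutant lungs. In each genotype lung 1 was the higher, and the genotypes overlapped. Its log2 fold change was -0.03 (SE 0.0779, 95% interval -0.20 to 0.14, edgeR QL, BH-adjusted p = 0.907). For both genes the sign near 0 depended on single lungs, at 0.03 for *Cftr* without wild-type lung 1 or without mutant lung 2, and at -0.0066 and -0.013 for *Slc12a2* without wild-type lung 1 or mutant lung 1. Opposite-strand overlap was small for *Cftr* (129 bases, 1.66%).

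*Ano1* (ENSMUSG00000031075; chr7:144588549-144751974, minus strand) encodes a calcium-activated chloride channel that is also known from smooth muscle. It was at 218 and 206 CPM in the wild-type lungs and at 178 and 189.9 CPM in the mutant lungs. Both mutant lungs lay below both wild-type lungs, but the log2 fold change of -0.20 (SE 0.0514, 95% interval -0.31 to -0.09) did not pass the test (edgeR QL, BH-adjusted p = 0.0756). Over 13 alternatives the adjusted p of *Ano1* ranged from 0.00167 to 0.382, and it passed in 3, among them without mutant lung 2 (edgeR QL and BH, 0.00167, log2 fold change -0.25) and with no filter on low counts (0.00635). Of 6 smooth muscle markers (*Acta2*, *Myh11*, *Tagln*, *Cnn1*, *Actg2* and *Des*), 0 were lower and 0 higher by edgeR's QL test, as at an unadjusted p under 0.05 and by DESeq2. Their median log2 fold change was -0.08, and their summed level was 684 and 739 CPM in the wild-type lungs and 666 and 664 CPM in the mutant lungs, led by *Acta2*, with none at 0. Their part in the *Ano1* values was not tested.

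**Figure D2:**
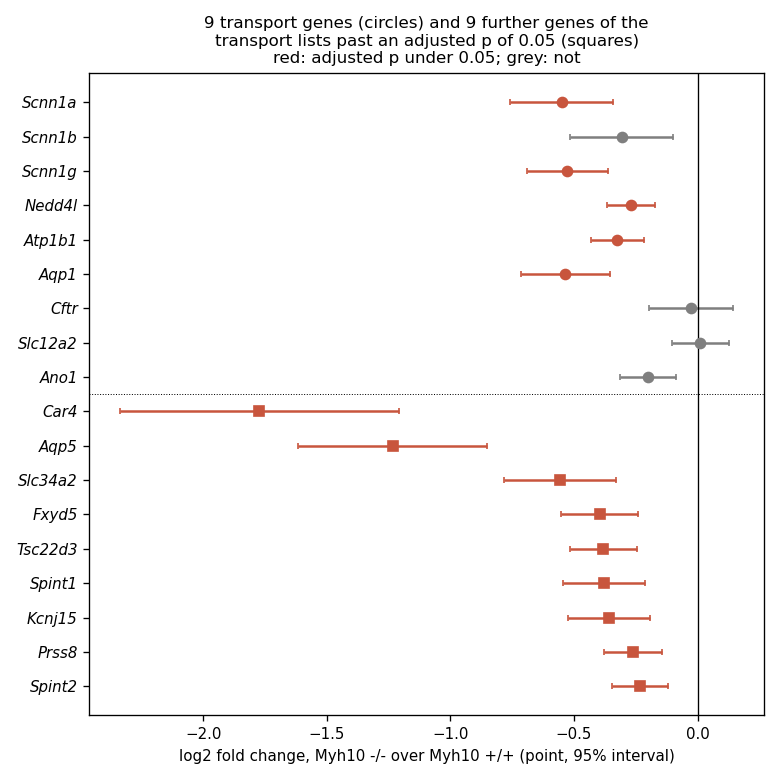
Log2 fold change (*Myh10*-/- over *Myh10*+/+, 2 lungs each) with its 95% interval for the 9 transport genes (circles) and for 9 of the 12 further genes of the transport lists past an adjusted p of 0.05 (squares; red marks an adjusted p under 0.05). *Slc12a2* and *Cftr* lie at 0.01 and -0.03 with intervals across 0, while the ENaC genes *Scnn1a* and *Scnn1g* lie at -0.55 and -0.53 and *Aqp5* at -1.23.

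Compared as levels per length, in CPM per kb of exon, the order of the 9 genes in the wild-type lungs ran from *Aqp1* (124.5 ± 5.67, SD, n = 2) and *Atp1b1* (99.9 ± 0.216) to *Scnn1b* (8.04 ± 0.0614) and *Cftr* (6.28 ± 0.332). *Slc12a2* stood at 41.0 ± 0.691 CPM per kb in these lungs, and *Ano1* (33.9 ± 1.36) and *Scnn1a* (33.7 ± 1.61) did not differ beyond their spread. The ENaC subunits held unequal levels per kb, with *Scnn1a* above *Scnn1g* (16.3 ± 0.62) and *Scnn1g* above *Scnn1b*. *Nedd4l* was at 13.4 ± 0.168 CPM per kb. In the mutant lungs the order of the means was kept, but some neighbours in it came closer. In mutant lung 1, *Aqp1* (76.2 CPM per kb) lay below *Atp1b1* (77.1), and *Scnn1b* (5.83) below *Cftr* (6.39). *Aqp1* (85.9 ± 13.7 CPM per kb) and *Atp1b1* (79.8 ± 3.79) overlapped, as did *Scnn1b* (6.47 ± 0.91) and *Cftr* (6.17 ± 0.304). *Scnn1g* (11.3 ± 0.197) and *Nedd4l* (11.1 ± 0.0711) were separated by less than their spread. *Scnn1a* (23.0 ± 4.32 CPM per kb) lay below *Ano1* (29.5 ± 1.33) in each mutant lung. The lengths join the exons of all annotated transcripts, so a gene with long alternative exons is given a low level per kb.

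Other genes of ion and water transport were read from 6 lists with 77 genes, of which 65 had enough counts to be tested. By edgeR's QL test 12 were lower and 0 higher (unadjusted p under 0.05: 19 lower, 3 higher; DESeq2: 9 lower, 0 higher), with a median log2 fold change of -0.09. Of all tested genes, 1.34% were lower and 0.298% higher by edgeR's adjusted p, 9.02% and 7.52% at an unadjusted p under 0.05, and 1.38% and 0.49% by DESeq2. The count of 12 depended on single lungs, with 5 lower without wild-type lung 1, 6 without wild-type lung 2, 7 without mutant lung 1, and 16 without mutant lung 2, where 2 were higher. The list of ENaC regulators had 15 genes, all tested, of which 4 were lower and 0 higher (edgeR QL; unadjusted p under 0.05: 4 lower, 1 higher; DESeq2: 4 lower, 0 higher). Its median log2 fold change was -0.09, and 1 was lower without wild-type lung 1, 2 without wild-type lung 2 and 2 without chromosomes X, Y and MT. *Prss8* encodes prostasin, a membrane protease that raises ENaC activity. It was at 127 and 121 CPM in the wild-type lungs and 103 and 104 CPM in the mutant lungs (log2 fold change -0.26, edgeR QL, BH-adjusted p = 0.0336). *Spint1*, an inhibitor of such proteases, was at 54.0 and 51.0 CPM in the wild-type lungs and 39.1 and 41.7 CPM in the mutant lungs (log2 fold change -0.38, edgeR QL, BH-adjusted p = 0.0311). The related inhibitor *Spint2* was at 149.6 and 140.4 CPM in the wild-type lungs and 124 and 123 CPM in the mutant lungs (log2 fold change -0.23, edgeR QL, BH-adjusted p = 0.0487). *Tsc22d3*, the glucocorticoid-induced leucine zipper gene, was at 114 and 114 CPM in the wild-type lungs and 82.9 and 91.9 CPM in the mutant lungs (log2 fold change -0.38, edgeR QL, BH-adjusted p = 0.0131). For each of these 4 genes both mutant lungs lay below both wild-type lungs. The protease genes *St14* and *Furin* of the same list, at log2 fold changes of -0.12 and -0.10, did not pass (edgeR QL, BH-adjusted p = 0.42 and 0.339).

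How far these calls held under other settings varied. *Tsc22d3* lies on chromosome X and is absent from the fit without chromosomes X, Y and MT, and it passed in the other alternatives, 12 of 12. Its absence is part of the lower count of ENaC regulators in that fit. Over 13 alternatives the adjusted p of *Prss8* ranged from 0.00299 to 0.269, and it was above the threshold without wild-type lung 1 (0.269) and without wild-type lung 2 (0.0519, edgeR QL and BH). That of *Spint1* ranged from 0.00109 to 0.0677 and was above it without wild-type lung 1 (0.0677). *Spint2* passed in 7 of 13, and its adjusted p over the alternatives with all 4 lungs ranged from 0.00561 to 0.0793 (edgeR QL and BH). It was above the threshold with DESeq2's size factors (0.0512), library totals (0.0558) and no genes of chromosomes X, Y and MT (0.0523). The highest value, 0.0793, came with crossed lung numbers as a block, which pair wild-type lung 1 with mutant lung 2. *Spint2* also did not pass without wild-type lung 1 or wild-type lung 2, at log2 fold changes of -0.19 and -0.28. The kinase and receptor genes through which steroid hormones act on ENaC did not pass. The kinase gene *Sgk1*, which restrains NEDD4L, was at 36.8 and 39.8 CPM in the wild-type lungs and 31.1 and 40.5 CPM in the mutant lungs, with overlap (log2 fold change -0.09, edgeR QL, BH-adjusted p = 0.731). The glucocorticoid receptor gene *Nr3c1* was at 308 and 299 CPM in the wild-type lungs and 312 and 314 CPM in the mutant lungs (log2 fold change 0.04, edgeR QL, BH-adjusted p = 0.688). The mineralocorticoid receptor gene *Nr3c2* was at 3.27 and 3.36 CPM in the wild-type lungs and 4.17 and 4.69 CPM in the mutant lungs, above them in both (log2 fold change 0.42, 95% interval 0.04 to 0.81, edgeR QL, BH-adjusted p = 0.257). *Sgk1*, *Nr3c1* and *Nr3c2* were picked out after their values were seen, as were *St14*, *Furin*, *Nedd4*, *Atp1b3*, *Aqp4*, *Slc26a9*, *Clcn2*, *Epcam*, *Nkx2-1* and *Sftpc*. Exons of *Prss8* overlap *Kat8* on the opposite strand by 122 bases (6.59%).

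Among 17 further chloride transport genes, 15 were tested and *Slc26a4* was at 0 in every lung. By edgeR's QL test 1 was lower and 0 higher (unadjusted p under 0.05: 4 lower, 1 higher; DESeq2: 0 lower, 0 higher), with a median of -0.05 on the log2 scale. With crossed lung numbers as a block, 0 were lower. The count of 1 became 0 without wild-type lung 1, without wild-type lung 2 or without mutant lung 1, and also with DESeq2's size factors or library totals as the scaling, with filterByExpr as the filter and without chromosomes X, Y and MT. It became 2 without mutant lung 2, where 1 gene was higher. The chloride channel gene *Slc26a9*, at 66.4 and 59.3 CPM against 59.1 and 62.3 CPM, overlapped between genotypes (log2 fold change -0.05, edgeR QL, BH-adjusted p = 0.789). *Clcn2* was higher in both mutant lungs, at 24.5 and 22.6 CPM against 20.5 and 19.0 CPM, but did not pass (log2 fold change 0.25, edgeR QL, BH-adjusted p = 0.14).

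Potassium channels keep the driving force for chloride exit. Of 11 listed, 9 were tested and 1 was lower and 0 higher by edgeR's QL test (unadjusted p under 0.05: 3 lower, 0 higher; DESeq2: 1 lower, 0 higher), with a median log2 fold change of -0.10. *Kcnj15*, an inward rectifier, was at 60.3 and 58.8 CPM in the wild-type lungs and 44.3 and 48.6 CPM in the mutant lungs, lower in both mutants (log2 fold change -0.36, edgeR QL, BH-adjusted p = 0.0387). Over 13 alternatives its adjusted p ranged from 0.00127 to 0.0824, and it was above the threshold without wild-type lung 1 (0.0824), wild-type lung 2 (0.0734) or mutant lung 1 (0.0537). Exons of *Kcnj15* overlap *Gm49643* on the other strand by 333 bases (5.27%).

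In the list of acid-base and solute transport, 11 of 13 genes were tested, 2 were lower and 0 higher by edgeR's QL test (unadjusted p under 0.05: 4 lower, 1 higher; DESeq2: 1 lower, 0 higher), and the median log2 fold change was -0.08. *Car4*, a carbonic anhydrase anchored to the outer face of lung capillary cells, was at 2.84 and 2.99 CPM in the wild-type lungs and 0.755 and 0.932 CPM in the mutant lungs. This low-level gene had the widest gap of the 12, a log2 fold change of -1.77 (SE 0.259, 95% interval -2.34 to -1.21, edgeR QL, BH-adjusted p = 0.00961), and it passed in 12 of 13 alternatives, DESeq2 giving it no adjusted p. *Slc34a2*, the apical sodium-phosphate cotransporter of alveolar type 2 cells, was at 821 and 745 CPM in the wild-type lungs and 465 and 599 CPM in the mutant lungs. Both mutant lungs were lower (log2 fold change -0.56, edgeR QL, BH-adjusted p = 0.0225). Over 13 alternatives its adjusted p ranged from 1.16e-18 to 0.0882, and it was above the threshold without mutant lung 1 (0.0841) and in DESeq2 (0.0882).

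The transport genes were then set beside markers of the epithelium itself. The pan-epithelial list had 6 genes (*Epcam*, *Cdh1*, *Krt8*, *Krt18*, *Krt19* and *Nkx2-1*), of which *Cdh1*, *Krt8* and *Krt19* were lower and 0 higher by edgeR's QL test (unadjusted p under 0.05: 4 lower, 0 higher; DESeq2: 3 lower, 0 higher), with a median of -0.27. Their summed level was 1515 and 1528 CPM in the wild-type lungs and 1327 and 1366 CPM in the mutant lungs, led by *Nkx2-1*. *Cdh1* was above the threshold without wild-type lung 1 (edgeR QL, BH-adjusted p = 0.0985). *Epcam* was at 144 and 152 CPM in the wild-type lungs and 148 and 139 CPM in the mutant lungs, with overlap (log2 fold change -0.04, 95% interval -0.16 to 0.07, edgeR QL, BH-adjusted p = 0.738). *Nkx2-1* was at 434 and 455 CPM in the wild-type lungs and 455 and 448 CPM in the mutant lungs, also with overlap (log2 fold change 0.02, 95% interval -0.09 to 0.14, edgeR QL, BH-adjusted p = 0.881). Taken relative to *Epcam* counts in the same lung, *Scnn1a* was at log2 ratios of 0.0022 and -0.17 in the wild-type lungs and -0.84 and -0.36 in the mutant lungs. The mean difference of this ratio was -0.519 for *Scnn1a*, -0.484 for *Scnn1g*, -0.281 for *Atp1b1*, -0.226 for *Nedd4l*, -0.275 for *Scnn1b* and -1.26 for *Aqp5* (two-sided exact permutation p = 0.333 for each). For *Ano1* it was -0.157, with overlap between genotypes (exact permutation p = 0.667). For *Cftr* it was 0.0194 (exact permutation p = 1), and for *Slc12a2* it was 0.0546 (exact permutation p = 0.333). These ratios were taken to *Epcam* only, and may differ with another marker. *Cdh1*, *Krt8* and *Krt19* had log2 fold changes of -0.30, -0.33 and -0.35, near those of *Atp1b1* and *Nedd4l*, and ratios to them were not taken.

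**Figure D3:**
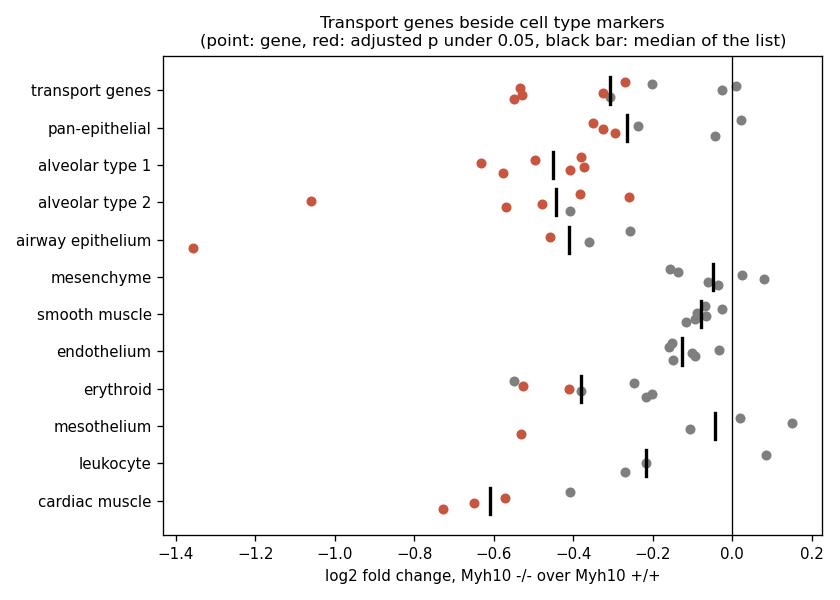
Log2 fold change (*Myh10*-/- over *Myh10*+/+) of each tested gene of the 9 transport genes and of each cell type marker list (points; red marks an adjusted p under 0.05, a black bar the median). The medians of the transport genes and of the alveolar type 1 and type 2 lists are -0.31, -0.45 and -0.44, beside -0.05 for mesenchyme, -0.13 for endothelium, -0.22 for leukocytes, -0.38 for erythroid cells and -0.61 for cardiac muscle.

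Alveolar markers were lower as well. All 6 markers of alveolar type 1 cells (*Ager*, *Hopx*, *Pdpn*, *Rtkn2*, *Clic5* and *Akap5*) were lower at an adjusted p under 0.05 in edgeR's QL test, with a median log2 fold change of -0.45. Their summed level was 2358 and 2261 CPM in the wild-type lungs and 1522 and 1804 CPM in the mutant lungs, led by *Ager* in the former and *Akap5* in the latter. DESeq2 called 4 of the 6. Leaving out wild-type lung 1, wild-type lung 2 or mutant lung 1 left 5 in each case, and without mutant lung 1 the log2 fold change of *Hopx* was -0.24 in place of -0.41. Of 6 markers of alveolar type 2 cells (*Sftpc*, *Sftpa1*, *Sftpb*, *Sftpd*, *Abca3* and *Lamp3*), 5 were lower and *Sftpc* did not pass (log2 fold change -0.41, edgeR QL, BH-adjusted p = 0.173). Their median log2 fold change was -0.44, and their summed level was 7863 and 7525 CPM in the wild-type lungs and 5279 and 6237 CPM in the mutant lungs, led by *Sftpc*. Without wild-type lung 1 the count was 3 and without wild-type lung 2 it was 4. Of 4 airway markers (*Scgb1a1*, *Scgb3a2*, *Cyp2f2* and *Foxj1*), *Scgb1a1* and *Cyp2f2* were lower, with a median of -0.41, and the summed level was 703 and 891 CPM in the wild-type lungs and 553 and 643 CPM in the mutant lungs, led by *Scgb3a2*. *Scgb1a1* was above the threshold with robust dispersion estimates (edgeR QL, BH-adjusted p = 0.343) and in DESeq2 (adjusted p = 0.0529), and its 13 alternatives ranged from 2.89e-48 to 0.343. None of these alveolar and airway markers was at 0, and mutant lung 1 had the lowest sum of each list. Exons of *Hopx* overlap *Hopxos* on the other strand by 412 bases (27.2%). The part of these cell types in the transport differences was not tested.

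The remaining lists had median log2 fold changes from -0.04 for mesothelium to -0.61 for cardiac muscle. Of 6 mesenchymal markers (*Col1a1*, *Col1a2*, *Pdgfra*, *Tbx4*, *Tcf21* and *Vim*), 0 were lower and 0 higher by edgeR's QL test (unadjusted p under 0.05: 1 lower, 0 higher; DESeq2: 0 lower, 0 higher), with 1 lower without mutant lung 2, a median of -0.05, and sums of 3771 and 3875 CPM in the wild-type lungs and 3676 and 3608 CPM in the mutant lungs, led by *Col1a2*. Of 3 leukocyte markers (*Ptprc*, *Csf1r* and *Cd68*), 0 passed in either direction (unadjusted p under 0.05: 2 lower, 0 higher; DESeq2: 0 lower, 0 higher), with 1 lower without mutant lung 2, a median of -0.22, and sums of 60.0 and 56.8 CPM against 49.8 and 53.3 CPM, led by *Csf1r*. Of 4 mesothelial markers (*Msln*, *Upk3b*, *Wt1* and *Lrrn4*), *Msln* was lower, at a log2 fold change of -0.53 that became -0.35 without mutant lung 1, and 0 were higher (unadjusted p under 0.05: 1 lower, 0 higher), while DESeq2 called 0 in either direction. Their median was -0.04, with sums of 315 and 343 CPM in the wild-type lungs and 231 and 281 CPM in the mutant lungs. Of 5 cardiac markers (*Myh6*, *Myl7*, *Nppa*, *Tnnt2* and *Actc1*), 4 were tested. By edgeR's QL test *Myh6*, *Myl7* and *Tnnt2* were lower and 0 were higher. At an unadjusted p under 0.05, and also by DESeq2, 4 were lower and 0 higher. Without wild-type lung 2 the log2 fold change of *Tnnt2* was -0.36 in place of -0.57. The median of the cardiac markers was -0.61. Their sums were 183.5 and 234 CPM in the wild-type lungs and 147 and 134.5 CPM in the mutant lungs, led by *Actc1*.

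The 2 mutant lungs were not alike. All 7 transport genes with no overlap between genotypes were lower in mutant lung 1 than in mutant lung 2, as were all 6 alveolar type 1 markers and 5 of the 6 type 2 markers, while 50.3% of all tested genes had that order. So had 36 of the 65 tested genes of the transport lists, 4 of 6 pan-epithelial, 3 of 4 airway, 6 of 7 erythroid, 3 of 3 leukocyte, 3 of 4 mesothelial, 4 of 6 smooth muscle, 3 of 6 mesenchymal, 1 of 6 endothelial and 1 of 4 cardiac markers. *Scnn1a* was at 82.5 CPM in lung 1 and 108 CPM in lung 2, *Aqp1* at 200.2 and 251 CPM, and *Aqp5* at 8.56 and 15.3 CPM. For *Cftr* and *Slc12a2* the order was the opposite, with 49.6 and 46.3 CPM, and 459 and 443 CPM. Mutant lung 1 was also the mutant lung with little *Xist*, and sex and replicate cannot be told apart within a genotype.

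Promoters of genes that fell are shown beside that of *Cftr*, which did not pass the test, so that the sequences can be compared. RefSeq promoter entries (GRCm38.p6), each running from 250 bases before to 50 after the RefSeq start of that entry, matched 6 of the 9 genes. *Scnn1a*, *Slc12a2* and *Nedd4l* had no entry. Each was searched on both strands for the GC box (GGGCGG, or CCGCCC on the other strand), for an E-box (CAGGTG or CACCTG), for the half-site of the glucocorticoid receptor (AGAACA or TGTTCT) and for the TEAD core (GGAATG or CATTCC). Over 32851 promoter entries of this length, 35.7% held the GC box, 20.2% the E-box, 19% the glucocorticoid half-site and 14.7% the TEAD core. The sequences run 5′ to 3′ on the strand of the gene, with GC boxes and E-boxes in capitals. *Scnn1g* (chr7:121734229-121734528, plus strand) held 2 GC boxes and 2 E-boxes, *Atp1b1* (chr1:164458306-164458605, minus strand) 2 GC boxes, *Aqp1* (chr6:55336049-55336348, plus strand) 1 GC box and 1 E-box, and *Cftr* (chr6:18170437-18170736, plus strand) 6 GC boxes, of which 3 overlap in one run of capitals.
Scnn1g: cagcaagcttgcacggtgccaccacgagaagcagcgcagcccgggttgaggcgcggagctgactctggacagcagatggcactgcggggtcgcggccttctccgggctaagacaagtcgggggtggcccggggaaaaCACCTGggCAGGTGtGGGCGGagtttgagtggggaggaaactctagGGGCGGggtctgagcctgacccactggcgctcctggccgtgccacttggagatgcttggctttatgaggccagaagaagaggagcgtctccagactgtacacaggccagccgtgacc
Atp1b1: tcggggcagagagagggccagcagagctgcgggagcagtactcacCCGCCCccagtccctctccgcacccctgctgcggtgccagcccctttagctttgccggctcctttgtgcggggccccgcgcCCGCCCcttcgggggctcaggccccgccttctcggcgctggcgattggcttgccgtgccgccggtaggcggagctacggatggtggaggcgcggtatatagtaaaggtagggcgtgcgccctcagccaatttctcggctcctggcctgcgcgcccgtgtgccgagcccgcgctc
Aqp1: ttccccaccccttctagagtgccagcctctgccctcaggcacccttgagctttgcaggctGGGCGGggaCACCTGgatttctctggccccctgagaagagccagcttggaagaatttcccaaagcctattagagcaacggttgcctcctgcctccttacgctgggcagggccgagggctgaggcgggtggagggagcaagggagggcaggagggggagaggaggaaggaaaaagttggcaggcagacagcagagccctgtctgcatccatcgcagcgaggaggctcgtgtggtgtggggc
Cftr: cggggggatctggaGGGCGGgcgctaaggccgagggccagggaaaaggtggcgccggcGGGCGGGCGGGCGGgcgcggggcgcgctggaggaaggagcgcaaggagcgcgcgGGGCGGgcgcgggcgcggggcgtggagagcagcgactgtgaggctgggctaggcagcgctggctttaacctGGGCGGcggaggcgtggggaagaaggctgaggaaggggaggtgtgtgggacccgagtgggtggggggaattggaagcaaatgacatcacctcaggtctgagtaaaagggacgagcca

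Each of the 6 entries thus held a GC box, whether the gene fell or not, with 1 in *Scnn1b* (chr7:121864788-121865087, plus strand) and 4 in *Ano1* (chr7:144738524-144738823, minus strand), which also held 1 E-box each. The RefSeq start is not that of GENCODE for 2 genes: the window of *Aqp1* ends before the gene begins in GENCODE, and that of *Ano1* lies inside the gene. The GC content ran from 61.7% in *Scnn1b* to 71.7% in *Ano1*, with 64.7% in *Scnn1g*, 62.7% in *Aqp1*, 71% in *Atp1b1* and 71.3% in *Cftr*. The glucocorticoid half-site and the TEAD core were in 0 of the 6 windows, which says only that these letters are not in these 300 bases. A match describes the sequence and is not a site of binding.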

How the data were processed

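Poly(A)-selected, stranded RNA libraries of 4 left lung lobes were sequenced by the authors, who deposited raw counts of reads per Ensembl gene, without normalization. The submitters' processing notes name STAR 2.4.0a and featureCounts 1.5.1, and the build is GRCm38. Reads that fit more than one place or gene were dropped by the authors. The strand setting of the counting is not stated, so reads from exons shared with a gene on the opposite strand were either resolved or dropped. Genes averaging 5 or more counts per lung were tested with edgeR 4.0.16 in R 4.3.3 (TMM scaling, glmQLFit with robust = FALSE, glmQLFTest, two-sided), and p-values were adjusted over all 18763 by the Benjamini-Hochberg method. CPM were computed on TMM-scaled totals of the tested genes. The script was tested on simulated data.

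From each list every gene past an adjusted p-value of 0.05 was to be named, or else up to 3 of the highest level. Some listed genes are counted but not reported here by name. The members and lists were chosen with earlier results of these data known. Replicate lungs are numbered only, and their litter and sex are not given in the sources used here. Alternatives were DESeq2's size factors, library totals, no filter, filterByExpr, robust = TRUE, DESeq2 1.42.0, no genes of chromosomes X, Y and MT, the replicate number as a block, crossed numbers as a block, and leaving out each lung. Lengths and overlaps come from GENCODE M21.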

Additional observations from a re-analysis of the deposited data

How the results depend on the processing

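Over the 9 alternatives with all 4 lungs, 76 of 81 values of the 9 transport genes kept their direction and their side of the threshold, 3 passed it (*Ano1* and *Scnn1b* with no filter on low counts, *Ano1* with the replicate block) and 2 no longer did (*Scnn1a* with robust = TRUE and with DESeq2). Of 421 such values of other named genes, 396 stayed and 25 no longer passed. Leaving out a lung leaves 1 lung in a genotype, which is assumed to vary like the others. It moved the lower genes among the 9 from 5 to between 4 and 7, the lower genes of the transport lists from 12 to between 5 and 16, and the higher ones from 0 to between 0 and 2. It gave log2 fold changes from -0.0782 to 0.0295 for *Cftr* (the highest without *Myh10*+/+ lung 1, 0.0252 without *Myh10*-/- lung 2), from -0.013 to 0.0377 for *Slc12a2* (-0.0066 without *Myh10*+/+ lung 1) and from -0.0729 to 0.0031 for *Col1a1*. The cause was not tested. Over all genes, 252 lower and 56 higher calls became 688 and 474 with no filter, 339 and 135 with robust = TRUE, 259 and 92 with DESeq2, 289 and 90 without chromosomes X, Y and MT, 223 and 87 without *Myh10*+/+ lung 1, 162 and 29 without *Myh10*+/+ lung 2, and 965 and 861 without *Myh10*-/- lung 2. DESeq2 gave *Car4* no adjusted p. With the replicate block, 6 of the 9 genes and 12 genes of the transport lists were lower, 0 were higher, and 466 lower and 244 higher calls were made over all genes. *Ano1* had a log2 fold change of -0.20 and an adjusted p of 0.0372 there (edgeR QL and BH). Deviations of same-numbered lungs were correlated across genes at -0.297, and at 0.0114 without chromosomes X, Y and MT. For genes averaging 250 or more counts, those of X, Y and MT included, the correlation was -0.654. Well-counted genes without these chromosomes were not taken alone, so these values cannot decide whether same-numbered lungs were paired. Crossed numbers as a block, chosen after seeing the data, pair the lungs that are alike in *Xist*. This block gave 5 of the 9 genes and 11 genes of the transport lists lower, and 320 lower and 95 higher calls over all genes.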
